A study of Homo sapiens with 6 samples.

Results

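Tenascin C (TNC) and 9 other large secreted glycoproteins and proteoglycans of the extracellular matrix were examined in lung cancer cells with and without knockdown of AKR1B10, an aldo-keto reductase. TNC was chosen by its FPKM values in these libraries, which were strongly lower in the knockdown, and FN1, THBS1, THBS2, SPARC, VCAN, AGRN, HSPG2, FBN1 and FBLN1 were added by function. These 10 genes were taken by symbol from 58735 genes in the deposited table. TNC is therefore described here with no test. The other members, the receptors and the remaining matrix genes were tested where their mean was at least 1 FPKM. The fit held all 13150 genes at that level.

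The cells were PC9-BrM3, a brain-metastatic subpopulation of the PC9 lung adenocarcinoma line obtained by repeated injection into the left ventricle of immunodeficient mice and recovery from the brain. In BrM3-shAKR1B10, a lentiviral short hairpin RNA targets AKR1B10, and BrM3-shNC carries a negative control hairpin (genotype WT in the labels). Both groups were grown under routine culture in RPMI-1640 with serum, and each held 3 RNA-seq libraries, so 6 libraries entered the comparison. Nothing in the sources used here says whether the libraries of a group came from separate cultures, so the p-values measure only the spread between these libraries, which may be technical. Both groups descend from 1 selected subpopulation and only 1 hairpin against AKR1B10 was sequenced.

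The matrix around a cell is built from fibrous proteins, adhesive glycoproteins and proteoglycans. Fibronectin forms fibrils that cells assemble through integrins, while matricellular proteins such as the tenascins, thrombospondins and SPARC bind to the matrix and change how cells adhere to it. Agrin and perlecan carry heparan sulfate chains in basement membranes, versican carries chondroitin sulfate, and fibrillins and fibulins belong to elastic fibres. Carcinoma cells make part of their own matrix, and TNC and FN1 are known components of metastatic niches.

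The 6 libraries held 16964504 to 18709028 reads on genes. Levels are given as FPKM, fragments per kilobase of gene scaled to the size of the library, which allows genes of different length to be compared. AKR1B10 itself was at 108.3, 107.2 and 110.2 FPKM in BrM3-shAKR1B10 and at 798.7, 775.0 and 772.0 FPKM in BrM3-shNC, or 13.9% of the control mean, in the direction of the labels. All 8 epithelial markers were expressed (44.8 to 974 FPKM), whereas none of 5 lung adenocarcinoma markers (NKX2-1, NAPSA, SFTPB, SFTPC and SLC34A2) reached a mean of 1 FPKM. Of 9 fibroblast markers only COL1A1 reached a mean of 1 FPKM. The summed fibroblast list stood at 1.20 to 1.37 FPKM in BrM3-shAKR1B10 and at 2.03 to 2.09 FPKM in BrM3-shNC, with COL1A2, PDGFRA, DCN and LUM at 0 in all 6 libraries, PDGFRB at 3 to 9 reads, and COL3A1, FAP and THY1 at 0 to 3 reads. The endothelial list summed to 2.10 to 2.38 FPKM in BrM3-shAKR1B10 and 1.52 to 1.81 FPKM in BrM3-shNC, with KDR at 0. Its CDH5 rose from a mean of 1.14 to 1.85 FPKM (log2 fold change 0.65, adjusted p = 0.0039, limma), while PECAM1, under the filter, was at 0.272 against 0.438 FPKM, lower in the knockdown with no overlap. The leukocyte list summed to 0.285 to 0.362 against 0.497 to 0.566 FPKM with LYZ at 0, and the astrocyte list to 1.68 to 2.14 against 1.92 to 2.41 FPKM with S100B at 0. The part of these marker levels in the results that follow was not tested.

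TNC, whose hexameric glycoprotein modulates adhesion to fibronectin, was the member that differed most between the groups. Its level was 4.97, 4.87 and 5.10 FPKM in the BrM3-shAKR1B10 libraries and 20.5, 21.2 and 20.8 FPKM in the BrM3-shNC libraries. The control libraries were all above the knockdown libraries by a wide margin, and within each group the libraries lay close together. The mean was 4.98 ± 0.112 FPKM (SD, n = 3) against 20.8 ± 0.356 FPKM (SD, n = 3), so that the knockdown held 23.9% of the control level, a 4.18-fold difference. The log2 fold change was -2.04 with a standard error of 0.0369, which placed TNC at rank 19 from the lowest of 13150 genes tested. These values chose the gene and are given as a description. In bulk RNA, fewer cells with TNC and less TNC RNA per cell cannot be told apart.

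TNC (ENSG00000041982) spans 115019578 to 115118257 of chromosome 9, minus strand (GRCh38, GENCODE 29). Between 846 and 871 reads fell on it in the knockdown libraries and between 3457 and 3651 in the control libraries, so counting error was small. DELEC1, a gene on the opposite strand that spans TNC, held 2 to 10 reads, at most 0.590% of the reads on TNC in the same library. Of the genes that overlap other members, AC037198.2 (THBS1), AL645608.5 (AGRN), AL590556.1 (HSPG2) and AC022467.1 (FBN1) held 0 reads, and the rest are given with their member. Whether the counting used the strand is not given in the sources used here.

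FN1, the gene of fibronectin, fell in the knockdown. It was at 30.8, 31.3 and 31.2 FPKM in BrM3-shAKR1B10 and at 47.3, 45.9 and 45.5 FPKM in BrM3-shNC. Every control library was above every knockdown library. The means were 31.1 ± 0.274 and 46.2 ± 0.962 FPKM (SD, n = 3 each), or 67.2% of the control. The log2 fold change was -0.57 (95% interval -0.64 to -0.50, adjusted p = 3.45e-05 by limma with Benjamini-Hochberg adjustment over all 13150 genes). FN1 (ENSG00000115414) spans 215360440 to 215436172 of chromosome 2, minus strand, and no other annotated gene overlaps it. COL1A1, the 1 fibroblast marker above a mean of 1 FPKM, differed by -0.67 on the log2 scale (adjusted p = 0.00319, limma) in the same direction as TNC and FN1, and its part in their values was not tested.

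A gene was called, and is written as risen or fallen, where its adjusted p was under 0.05 and its log2 fold change lay beyond 0.5 in either direction. By that rule 1 of the 5 tested members other than TNC was called lower, and 7.45% of all genes tested were. None of the 5 was called higher, and 5.83% of all genes tested were. The ranges of the groups did not overlap for 3 of these 5 members (FN1, THBS1 and FBLN1), while 54.7% of all genes tested were of this kind. The remaining 4 members, THBS2, SPARC, VCAN and FBN1, were under the filter of a mean of 1 FPKM.

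**Figure D1:**
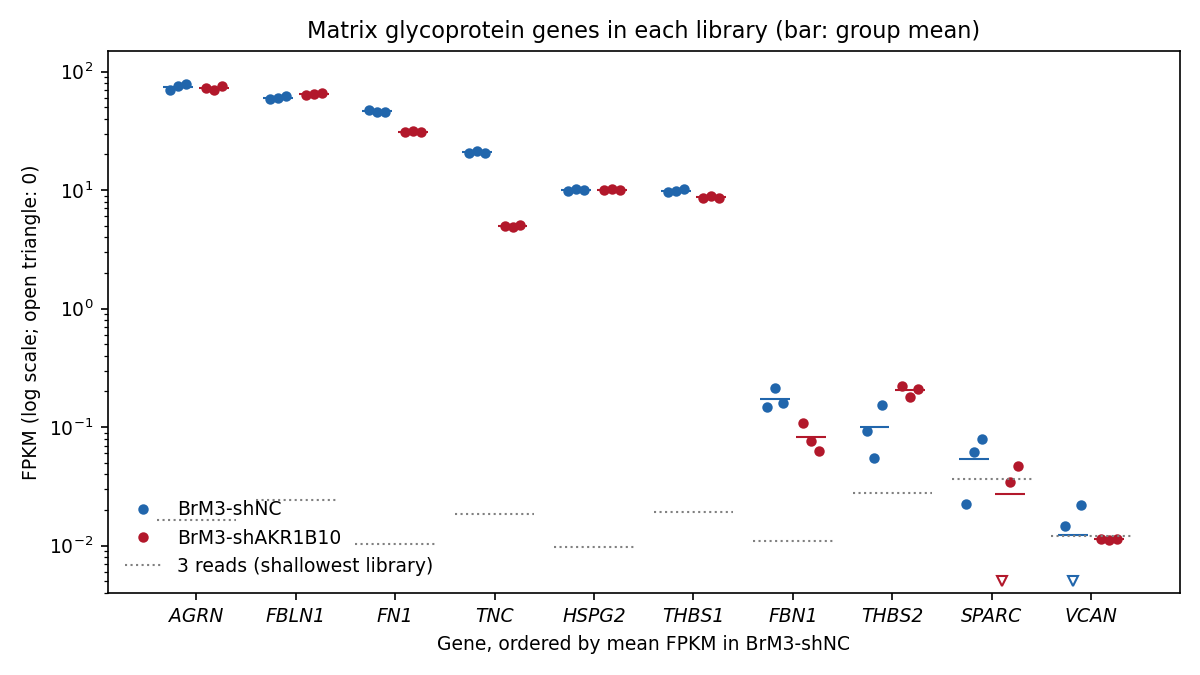
FPKM of the 10 matrix genes (log axis) in 3 BrM3-shNC and 3 BrM3-shAKR1B10 libraries; points are libraries, bars are group means, dotted lines mark the level of 3 reads and open triangles stand for 0. TNC (20.8 against 4.98 FPKM) and FN1 (46.2 against 31.1 FPKM) are lower in every knockdown library, and SPARC and VCAN lie near the level of 3 reads.

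The promoters of TNC and FN1 are shown because TNC was the gene chosen by its decrease and FN1 was the 1 other member called lower. The windows run from 250 bases before to 50 bases after the RefSeq start (300 bases, GRCh38.p14, in the direction of the gene), and capitals mark matches to the letters ATATAA as in a core promoter box, TGACGTCA as in the cyclic AMP response element, and GGGCGG as in the binding motif of Sp1. TNC lies at chr9:115118108-115118407 and FN1 at chr2:215436019-215436318, both on the minus strand.
TNC: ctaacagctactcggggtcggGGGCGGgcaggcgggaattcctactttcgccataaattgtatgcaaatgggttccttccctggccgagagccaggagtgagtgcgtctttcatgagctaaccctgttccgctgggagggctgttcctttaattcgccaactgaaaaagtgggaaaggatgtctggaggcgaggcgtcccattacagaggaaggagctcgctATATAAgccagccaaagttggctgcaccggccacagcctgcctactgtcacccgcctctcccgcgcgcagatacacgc
FN1: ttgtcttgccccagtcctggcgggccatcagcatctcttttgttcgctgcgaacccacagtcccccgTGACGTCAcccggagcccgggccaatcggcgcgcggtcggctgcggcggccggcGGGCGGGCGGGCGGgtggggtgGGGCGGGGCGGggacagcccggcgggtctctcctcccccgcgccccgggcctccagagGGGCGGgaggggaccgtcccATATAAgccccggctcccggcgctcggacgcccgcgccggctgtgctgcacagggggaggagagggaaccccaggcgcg

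Both windows held ATATAA on the strand of the gene, starting 28 bases before the start in TNC and 29 bases before it in FN1. The search covered both strands, allowed matches to overlap (5 of the 6 GGGCGG matches of FN1 share bases with a neighbouring match), and its motifs were chosen after the sequences were seen. ATATAA was present in 8.26% of 35116 RefSeq promoters of this length and in 4 of the 9 members with an entry (TNC, FN1, THBS2 and VCAN). TGACGTCA was present in 1.85% of all promoters and in FN1 alone among the members. GGGCGG was present in 45.0% of all promoters and in 6 of the 9 members, with 1 match in TNC and 6 in FN1. GC content was 57.3% in the TNC window and 76.7% in the FN1 window. A match is a description of these letters and does not show that a factor binds there.

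THBS1 encodes thrombospondin 1, a trimeric glycoprotein that binds CD47 and CD36 and can activate latent TGF-beta. It was at 8.57, 8.95 and 8.54 FPKM in BrM3-shAKR1B10 and at 9.68, 9.83 and 10.1 FPKM in BrM3-shNC. The groups did not overlap, but the gap between them was small. The log2 fold change was -0.18 (95% interval -0.28 to -0.09, adjusted p = 0.0107, limma), which passed the threshold on p but not that on size, so THBS1 was not called. THBS1 (ENSG00000137801) spans 39581079 to 39599466 of chromosome 15, plus strand, and FSIP1, which overlaps it on the other strand, held 6 to 19 reads, and the intronic AC037198.1 held 0 to 6.

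FBLN1, the gene of the calcium-binding glycoprotein fibulin 1, was the second most abundant member per length. It was at 63.9, 64.3 and 66.6 FPKM in BrM3-shAKR1B10 and at 58.8, 59.8 and 62.2 FPKM in BrM3-shNC. The lowest knockdown library lay just above the highest control library. The log2 fold change was 0.11 (95% interval 0.03 to 0.19, adjusted p = 0.0427, limma) and did not reach the size threshold. Across the alternatives its adjusted p ranged from 0.00204 to 0.131. FBLN1 (ENSG00000077942) spans 45502238 to 45601135 of chromosome 22, plus strand, with no other annotated gene over it.

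The heparan sulfate proteoglycans differed by less than the spread between libraries. AGRN encodes agrin, which clusters acetylcholine receptors at the neuromuscular junction through LRP4 and binds dystroglycan. It was the most abundant member, at 73.0, 70.6 and 74.9 FPKM in BrM3-shAKR1B10 and 70.5, 75.1 and 77.9 FPKM in BrM3-shNC. The groups overlapped, and the log2 fold change of -0.03 (95% interval -0.14 to 0.08, adjusted p = 0.61, limma) changed sign with the scaling. HSPG2 encodes perlecan, a core component of basement membranes, and was at 10.1, 10.2 and 9.95 FPKM against 9.87, 10.3 and 9.97 FPKM. These ranges overlapped as well, with a log2 fold change of 0.01 (95% interval -0.08 to 0.09, adjusted p = 0.913, limma). AGRN (ENSG00000188157) spans 1020123 to 1056118 and HSPG2 (ENSG00000142798) 21822245 to 21937297 of chromosome 1, on the plus and the minus strand, and LDLRAD2, which overlaps HSPG2 on the other strand, held 6 to 11 reads. For both genes the interval leaves out a change as large as that of FN1.

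THBS2 and FBN1 were detected at low levels and were not tested with the other members. THBS2, a second trimeric thrombospondin, held 25, 21 and 24 reads in BrM3-shAKR1B10 and 11, 6 and 18 reads in BrM3-shNC. In FPKM this was 0.204 ± 0.0205 against 0.101 ± 0.0497 (SD, n = 3 each), a ratio of 2.03 with no overlap. FBN1, the gene of the microfibril protein fibrillin 1, went the other way, with 31, 22 and 18 reads against 44, 58 and 47 reads. Its mean was 0.0828 ± 0.0238 FPKM against 0.174 ± 0.0344 FPKM (SD, n = 3 each), a ratio of 0.475, again with no overlap. A two-sided exact permutation test gave p = 0.10 for each gene, the smallest that 3 libraries against 3 allow. Among 18433 genes with a mean above 0 and under 1 FPKM, 13.8% had groups that did not overlap.

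With no filter on low values, limma gave log2 fold changes of 0.63 for THBS2 (adjusted p = 0.236) and -0.59 for FBN1 (adjusted p = 0.210). On the recovered reads, limma's voom with no filter, an alternative chosen after seeing the data, gave 1.08 for THBS2 (adjusted p = 0.0548) and -1.07 for FBN1 (adjusted p = 0.00758). THBS2 shares its locus with the antisense RNA BX322234.1, which held 11 to 15 reads, more than THBS2 itself in 2 of the 3 control libraries. Reads of the THBS2 locus are therefore uncertain without strand. THBS2 (ENSG00000186340) spans 169215780 to 169254044 of chromosome 6, and FBN1 (ENSG00000166147) spans 48408306 to 48645849 of chromosome 15, both on the minus strand.

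SPARC, a collagen-binding matricellular protein, held 0, 3 and 4 reads in BrM3-shAKR1B10 and 2, 5 and 7 reads in BrM3-shNC. VCAN, the gene of the chondroitin sulfate proteoglycan versican, held 3, 3 and 3 reads against 4, 0 and 6 reads. SPARC (ENSG00000113140) spans 151661096 to 151687165 on the minus strand and VCAN (ENSG00000038427) 83471465 to 83582303 on the plus strand of chromosome 5. CLMAT3, antisense to SPARC, held 4, 0 and 1 reads in BrM3-shAKR1B10 and 2, 0 and 0 reads in BrM3-shNC, so reads of the SPARC locus are uncertain without strand as well, and VCAN-AS1, antisense to VCAN, held 0. Both members were near the floor of 3 reads, so no fold is given and a difference was not detectable at this depth.

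Ordered by FPKM in BrM3-shNC, the members ran from AGRN through FBLN1, FN1, TNC, HSPG2, THBS1, FBN1, THBS2 and SPARC to VCAN. Neighbouring ranges overlapped between HSPG2 and THBS1, FBN1 and THBS2, and THBS2 and SPARC. In BrM3-shAKR1B10 the first 3 kept their order, but TNC stood at rank 6, under HSPG2 and THBS1, rather than at rank 4. THBS2 then stood above FBN1, and among neighbours only SPARC and VCAN overlapped.

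The 10 members summed to 190.6 to 196.6 FPKM in BrM3-shAKR1B10 and 217.0 to 226.9 FPKM in BrM3-shNC. Without TNC and FN1 the sums were 154.4 to 160.3 and 149.1 to 160.6 FPKM, which overlap. TNC made up 2.56% to 2.59% of the sum in the knockdown and 9.15% to 9.54% in the control, and FN1 made up 15.9% to 16.4% and 20.1% to 21.8%. TNC was also lower relative to FN1, with a ratio of the levels of 0.156 to 0.163 against 0.433 to 0.463. These sums and ratios hold TNC and are descriptions.

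**Figure D2:**
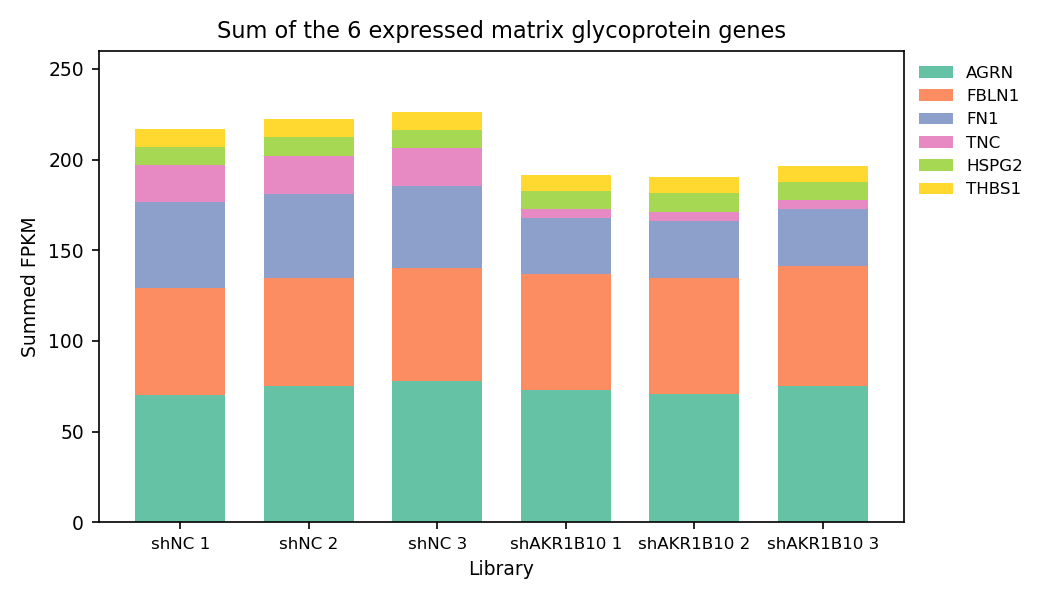
Stacked bars of the FPKM of the 6 members with a mean of at least 1 FPKM, for each library. The TNC segment (means of 20.8 FPKM in the control and 4.98 FPKM in the knockdown) and the FN1 segment (46.2 and 31.1 FPKM) are shorter in the knockdown bars.

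Among the receptors of these proteins, 16 of 26 listed genes were tested, of which 1 fell (6.25%) and 1 rose (6.25%). Of all genes tested, 7.45% were called lower and 5.83% higher, close to these shares. ITGA5, the alpha 5 subunit that pairs with ITGB1 as the main fibronectin receptor, fell. It was at 1.72, 1.51 and 1.84 FPKM in BrM3-shAKR1B10 and at 3.63, 4.03 and 3.42 FPKM in BrM3-shNC. All control libraries exceeded the knockdown libraries, and the log2 fold change was -1.09 (95% interval -1.33 to -0.84, adjusted p = 0.000336, limma). SDC4, a transmembrane heparan sulfate proteoglycan that binds fibronectin beside integrins, rose from 88.4 ± 2.31 to 131.5 ± 3.77 FPKM (SD, n = 3 each), with a log2 fold change of 0.57 (adjusted p = 6.65e-05, limma). Its values were 135.8, 129.9 and 128.8 FPKM in the knockdown against 85.9, 90.4 and 89.0 FPKM in the control, with no overlap.

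The partner subunit ITGB1 was at 65.2 against 61.1 FPKM on average (log2 fold change 0.09, adjusted p = 0.0597, limma). CD44, a hyaluronan receptor, had a mean of 57.4 FPKM in the knockdown and 74.8 FPKM in the control, a log2 fold change of -0.38 (adjusted p = 0.000129, limma) that missed the size threshold. ITGAV (0.33), LRP1 (0.27) and the dystroglycan gene DAG1 (0.27) had positive log2 fold changes with adjusted p-values of 0.00819, 0.00859 and 0.0014 by limma, also under the size threshold. For EGFR, to which TNC repeats can bind, the log2 fold change was -0.13 (adjusted p = 0.0154, limma), and for CD47, the thrombospondin receptor, it was 0.04 (adjusted p = 0.453, limma). ITGA9, a TNC receptor subunit, was under the filter, with means of 0.0929 and 0.0947 FPKM. LRP4, the agrin receptor, was under it too, at 0.711 ± 0.0633 FPKM in the knockdown and 0.965 ± 0.0893 FPKM in the control (SD, n = 3 each), with no overlap.

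**Figure D3:**
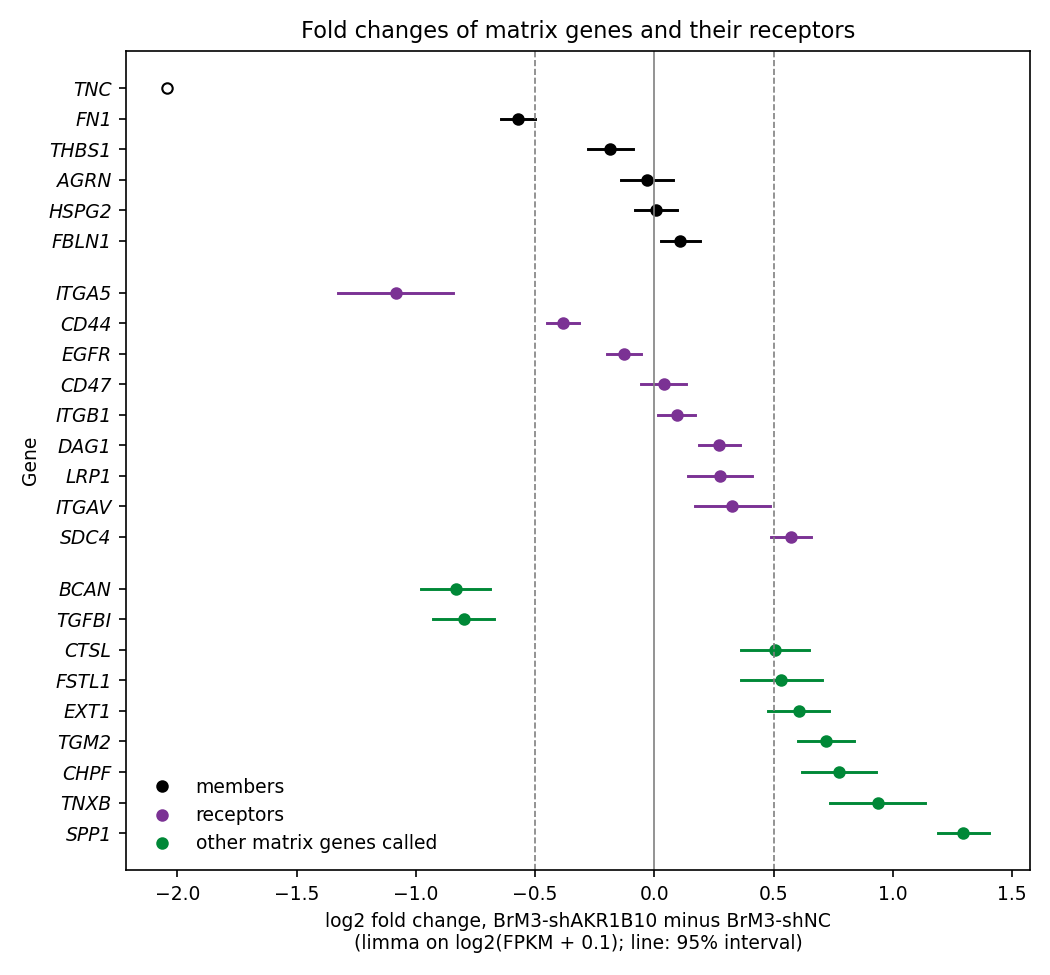
Log2 fold changes of TNC and the 5 tested members, 9 receptors and 9 other called matrix genes; lines are 95% intervals from limma, dashed lines mark 0.5 in each direction and the open circle is TNC, shown without interval. TNC lies at -2.04 and FN1 at -0.57, the other 4 members lie between -0.18 and 0.11, ITGA5 is at -1.09 and SPP1 at 1.30.

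Other genes of the same matrix families were taken from 8 lists with 154 genes in all, members left out. Of these, 70 were tested, 3 fell (4.29%), 8 rose (11.4%) and 59 did not pass. Their median log2 fold change was 0.04, against -0.01 over all genes tested, and 20 of the 84 genes under the filter had no read in any library. The shares called over all genes tested were 7.45% lower and 5.83% higher. They are the background for the count of each list that follows, most of which rest on few tested genes.

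Of 6 further tenascins and thrombospondins, 2 were tested. TNXB, the gene of tenascin X, rose from 1.43, 1.65 and 1.49 FPKM in BrM3-shNC to 3.02, 2.96 and 3.04 FPKM in BrM3-shAKR1B10, the opposite direction to TNC. Its log2 fold change was 0.94 (adjusted p = 0.000281, limma). TNXB shares near-identical sequence with the pseudogene TNXA, which held 1 to 12 reads per library, so its count is uncertain.

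Of 7 tested genes among 16 in the SPARC family, the CCN family and other matricellular proteins, 1 fell and 2 rose. SPP1, the gene of osteopontin, a secreted ligand of integrins and CD44, rose from 45.0, 45.7 and 45.2 FPKM to 118.9, 107.7 and 108.0 FPKM. The knockdown libraries were all far above the control, with a log2 fold change of 1.30 (adjusted p = 1.11e-05, limma). The ratio of SPP1 to TNC was 2.16 to 2.20 in the control and 21.2 to 23.9 in the knockdown. FSTL1, a secreted glycoprotein with a follistatin domain, rose with a log2 fold change of 0.53 (adjusted p = 0.00145, limma), a call lost with a pseudocount of 1 (0.40) and without BrM3-shAKR1B10 2 (0.50, just under the threshold). TGFBI, an adhesive protein induced by TGF-beta, fell from 5.14, 5.27 and 5.30 FPKM to 3.11, 2.91 and 2.89 FPKM (log2 fold change -0.80, adjusted p = 8.77e-05, limma).

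Among 27 proteoglycans and link proteins, 7 were tested, of which BCAN fell and SDC4 rose. BCAN encodes brevican, a chondroitin sulfate proteoglycan best known from brain matrix, and was at 3.0, 3.12 and 2.76 FPKM in BrM3-shAKR1B10 and 5.42, 5.36 and 5.26 FPKM in BrM3-shNC. The groups were well apart, with a log2 fold change of -0.83 (adjusted p = 0.000124, limma). None of the 7 tested fibrillins, fibulins and other elastic fibre genes was called, out of 25 listed, and their median was -0.05. Of 5 tested basement membrane and assembly genes TGM2, a transglutaminase that crosslinks fibronectin, rose (0.72, adjusted p = 9.66e-05, limma).

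The enzymes that build glycosaminoglycan chains were mostly expressed, with 24 of 29 tested. CHPF, a chondroitin polymerizing factor, rose with a log2 fold change of 0.77 (adjusted p = 0.000221, limma). EXT1, a heparan sulfate polymerase, rose by 0.61 on the log2 scale (adjusted p = 0.000278, limma), a call lost with a pseudocount of 1 (0.49), and the other 22 were not called. Of 17 enzymes that cleave these proteins or their heparan sulfate chains 4 were tested, and CTSL, the lysosomal cathepsin L, rose by 0.51 (adjusted p = 0.000836, limma). The call was lost with a pseudocount of 1 (0.48) and without BrM3-shAKR1B10 2 (0.46) or BrM3-shNC 1 (0.46). With no filter on low values, 2 genes of this list were called lower. Under the alternatives, 0 to 1 of its genes were called higher.

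Outside the members, the genes closest to TNC were found by the root mean square difference of log2(FPKM + 0.1), each gene centred on its mean over the 6 libraries. They were LNCAROD, a long noncoding RNA (0.111), DEPDC1, a gene active in mitosis (0.117), MZT1, a part of the gamma-tubulin ring complex (0.122), KRT17, an epithelial keratin (0.151), and TFF1, a secreted trefoil peptide (0.162). Their log2 fold changes were -1.92, -1.82, -2.21, -1.81 and -1.83, beside -2.04 for TNC. The likeness rests on the same group difference that chose TNC and is a description. KRT17 has near-identical copies in the genome, so its level is uncertain.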

How the data were processed

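RNA-seq of 3 BrM3-shAKR1B10 and 3 BrM3-shNC libraries was used, grouped by their labels. The authors aligned reads with HISAT2 2.0.5, counted them per gene with featureCounts 1.5.0-p3 and deposited FPKM for each gene and library, without pooling replicates; the genome build is not given in the sources used here, and all 58735 gene positions match GENCODE 29. Whole reads were recovered from FPKM and gene length for 100% of values (tolerance 0.01 reads) and a floor of 3 reads was used, which covers counting error alone. The deposited FPKM already included a scaling between libraries.

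Comparisons used the 13150 genes whose FPKM averaged 1 or more, by lmFit and eBayes (with trend) of limma 3.58.1, run in R 4.3.3 on log2(FPKM + 0.1), and Benjamini-Hochberg adjustment. Fold changes are on that scale, which understates the change of low genes. The fit was tested on simulated data. THBS2 and FBN1 were compared by exact permutation of log2(FPKM + 0.1), on the difference of the group means, with scipy 1.17.1. Python 3.11.15, numpy 2.4.6 and pandas 2.3.3 were used.

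Members and lists were chosen with earlier results of these data known. The genes named are the members, every called gene of the 8 matrix lists (the 4 largest where more than 4 of a list were called), 11 receptors and partners, the 5 genes closest to TNC, genes overlapping a member, AKR1B10 and the cell type markers; TNXA was named after its values were seen. Promoters of 9 members came from RefSeq (GRCh38.p14). Alternatives were other pseudocounts, filters and scalings, eBayes without trend, limma's voom, a replicate block and leaving out each library.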

Additional observations from a re-analysis of the deposited data

How the results depend on the processing

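TNC kept its direction under all 16 alternatives (log2 fold change -2.06 to -1.87), and FN1 was called lower under each of them (-0.58 to -0.51). AGRN changed sign with TPM scaling (0.00515) and with quantile normalization (0.0147), and ranged from -0.0713 to 0.00114 with 1 library left out, positive without BrM3-shNC 3. HSPG2 ranged from -0.00698 to 0.0245 with 1 library left out, negative without BrM3-shAKR1B10 2 (-0.00448), BrM3-shNC 1 or BrM3-shNC 3 (-0.000227). The cause was not tested.

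Over all genes the calls were 980 lower and 766 higher. A mean FPKM of at least 5 tested 7355 genes and gave 532 lower and 290 higher, and a pseudocount of 1 gave 497 higher. With TPM scaling the balance turned, with 873 lower and 902 higher. Voom on the recovered reads gave 1038 lower and 789 higher, and, with no filter, 1366 lower and 1285 higher. In that last fit, chosen after seeing the data, 2 members were called lower, with FBN1 added. Among the 8 matrix lists, 3 genes fell and 8 rose; the fell count was 6 with no filter, 0 at a mean of at least 5 FPKM and 9 with voom and no filter, and the rose count was 5 with a pseudocount of 1 and 5 at a mean of at least 5 FPKM. With 1 library left out these counts ran from 3 to 4 and from 6 to 9.

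FSTL1, EXT1 and CTSL lost their calls under the alternatives named beside them. Without BrM3-shAKR1B10 1, 2 receptors were called lower, and without BrM3-shNC 3, 1 elastic fibre gene was called higher.

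Libraries with the same replicate number did not deviate together over the genes tested (correlations -0.0155, 0.00388 and 0.00383). A shared effect on a few genes could be missed this way. The labels do not say whether the numbers pair the libraries. A fit with the replicate number as a block gave 967 lower and 719 higher genes. In a design of 3 libraries a group, the members with at most 58 reads in any library (THBS2, FBN1, SPARC and VCAN) are limited by depth.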
